A study of Saccharomyces cerevisiae with 14 samples.

Results

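The 2400 cofilin variants described here carry a basic residue at position 5, 800 each with Lys, Arg or His (Lys5, Arg5 and His5), and were taken by name from a library of 16000. The library varied positions 2 to 5 of human cofilin-1, with all residues at positions 2, 4 and 5 and Ser or Thr at position 3. A variant is written by its residues at these positions, so that the human sequence is ASGV. Every pool was budding yeast of the TeTO7-COF1 strain, in which doxycycline (DOX) turns off the yeast's own cofilin gene, COF1. All cells carried a plasmid for full-length FLAG-LIMK1 under the GAL1 promoter, and each carried a His6-tagged cofilin variant expressed constitutively from a high-copy GPD plasmid. Each of 3 screens started from a frozen aliquot of the same transformed cells and gave 8 libraries. The T-1 library came from glucose without DOX, and T0 from raffinose with DOX. T1, T2 and T3 followed in 2% glucose with DOX, where LIMK1 is off, and in 2% raffinose with 1% galactose and DOX, where LIMK1 is induced. The screens share 1 transformation, so the spread between them does not cover that step.

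Cofilin binds and severs actin filaments, and yeast without a working cofilin grow poorly. The kinase LIMK1 phosphorylates cofilin on Ser3, just behind the start of the protein, and this switches off its binding to actin. Position 5 is Val in human cofilin, a small aliphatic residue. Lys and Arg are positively charged and long, whereas His is a ring that is only partly charged in the cell. A variant that supports growth gains in share of the pool, and a variant that does not is diluted by the others.

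The codons that tell the members apart are shown in capitals below, after the lower-case codons of positions 2 to 4. The human sequence and its Lys5, Arg5 and His5 versions come first. The next are the only members called higher from T0 to T2 in glucose on the scale of total reads, all with Ser3, Leu4 and His5. The last are other position 5 versions of the highest of these, FSLH.
ASGV: gctagcggtGTT
ASGK: gctagcggtAAA
ASGR: gctagcggtCGT
ASGH: gctagcggtCAT
FSLH: ttcagcctgCAT
LSLH: ctgagcctgCAT
MSLH: atgagcctgCAT
ISLH: atcagcctgCAT
FSLK: ttcagcctgAAA
FSLR: ttcagcctgCGT
FSLQ: ttcagcctgCAG
FSLL: ttcagcctgCTG
Across the library, the Lys codon was 1 base from those of Glu and Asn, the Arg codon 1 base from Gly and His, and the His codon 1 base from Gln and Arg. At least 2 base changes separated each of the 3 codons from those of Val, Ile, Leu, Met, Thr and Cys.

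Libraries held between 7185497 and 61265998 reads, with a median of 23863730. Levels are given as reads per 1000000 reads of the library (rpm), so that they are relative to the pool. The median member had 46, 114 and 19 reads at T2 in glucose in screens 1, 2 and 3, and 8, 27 and 5 reads at T3 in galactose. In those last libraries 53, 7 and 143 of the 2400 members had no read. Late values of single members therefore rest on few reads.

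Variants with a basic residue at position 5 were nearly lost from the pool once COF1 was off. They held 13.1%, 12.8% and 14.3% of all reads at T0 in the 3 screens. At T1 in glucose their share was 2.33%, 1.84% and 1.55%, and at T2 it was 0.729%, 0.699% and 0.363%. In galactose they held 0.449%, 0.522% and 0.548% at T2. Every share at T1 and T2 lay far under those at T0, and the screens did not overlap between time points in glucose up to T2. From T2 to T3 in glucose the share was nearly level, at 0.551%, 0.676% and 0.329%.

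The 3 residues fell by similar amounts, Arg the most. The median level of Lys5 variants went from 55.8 ± 4.51 rpm at T0 (mean and SD of the 3 screens) to 5.83 ± 1.79 at T1 and 1.86 ± 0.864 at T2 in glucose. For Arg5 the medians were 41.7 ± 3.60, 3.94 ± 1.30 and 1.02 ± 0.531. For His5 they were 51.5 ± 2.32, 6.88 ± 1.67 and 1.58 ± 0.770. In galactose the medians at T2 were 0.938 ± 0.246 for Lys5, 0.438 ± 0.0486 for Arg5 and 0.896 ± 0.187 for His5. Arg5 had the lowest median of the 3 residues in every screen at T0, at T1 in glucose and at T2 in both media.

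On the log2 scale the median Lys5 variant changed by -4.97 ± 0.94 from T0 to T2 in glucose, the median Arg5 variant by -5.41 ± 1.05 and the median His5 variant by -5.05 ± 0.83. Over all 16000 variants the median change was -4.06 ± 0.60. The medians of screen 3 lay lowest for all of these groups. Within a screen the Arg5 median was below the Lys5 median by 0.24, 0.51 and 0.55, and below the His5 median by 0.06, 0.41 and 0.61. The difference of the His5 and Lys5 medians was -0.18, -0.10 and 0.06, so its sign was not the same in all screens. With 3 screens an exact permutation of signs cannot give a two-sided p under 0.25, and no p is given for these medians.

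Nearly every member fell in the test of single variants. By edgeR's quasi-likelihood test with Benjamini-Hochberg adjustment over all 16000 variants, 2382 of 2400 members were lower at T2 in glucose than at T0 and 4 were higher (0.167% of the members). Among all variants 70.0% were called lower and 20.9% higher. A fall of this size was not limited to basic residues. Asp5 and Glu5 variants had 1571 of 1600 called lower, with a median log2 change of -5.27, against -5.06 for the members. Asn5 and Gln5 variants had 1514 of 1600 lower (-4.595), and those with an aromatic residue there 2119 of 2400 (-4.83). The Ile5, Leu5, Met5, Thr5 and Val5 variants went the other way, with 2475 of 4000 higher and 928 lower (1.52). All 800 Lys5 variants, 798 Arg5 variants and 784 His5 variants were lower. The 4 that rose were FSLH, LSLH, MSLH and ISLH. Of the 14 members that were not called either way, 11 also had Leu4 and His5, namely MTLH, HSLH, PTLH, LTLH, ESLH, DSLH, ASLH, YSLH, CSLH, WSLH and FTLH. The others were ISVH, STWR and GSYR. Of the called members, 2385 of 2386 had the same sign in every screen.

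Reads are shared within a library, so a scale that differs from total reads moves every variant. Relative to the sum of the Asp5 and Glu5 variants, the median of all variants changed by 0.06 on the log2 scale from T0 to T2 in glucose, against -4.15 by total reads, and that of the members by -0.85 against -5.06. The member median lay below that of all variants by total reads. A change of scale shifts these medians by nearly the same amount, so their order on the other scale is no further check. On the Asp5 and Glu5 scale 113 members were called higher and 925 lower, and 30 of the 113 were Leu4-His5 variants. Of all variants 6244 were called higher and 3591 lower on this scale. The Asp5 and Glu5 variants themselves fell by total reads, with 1571 of 1600 called lower. A member called higher on their scale therefore fell less than they did, or rose. All 14 members that were not called by total reads were called higher on this scale, by TMM and by DESeq2, whereas the Lys5 variants then had 25, 1 and 33 called higher.

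The strongest falls were those of CSAR, WTDR, LTHR, ISEK and DSMR, the 5 lowest members that fell in all screens. CSAR had 71.3, 93.0 and 79.6 rpm at T0 and 0.699, 1.18 and 0.312 at T2 in glucose, a log2 change of -6.92 ± 0.74 (SE; edgeR, adjusted p = 7.06e-20). ISEK had 120, 75.9 and 153 at T0 and 0.782, 1.70 and 0.867 at T2, a change of -6.71 ± 0.62 (edgeR, adjusted p = 7.91e-26). Neither variant overlapped between T0 and T2. Both started above the median level of their residue at T0. Nearly all members were low at T2, so the size of a fall depends in part on the level at T0. Of these 5, 4 carry Arg5, and none has Leu4.

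The native human tail rose and its basic versions fell. ASGV, the human sequence, had 65.0, 61.2 and 43.0 rpm at T0 and 483, 609 and 430 at T2 in glucose. ASGK had 98.2, 74.7 and 81.2 at T0 and 1.69, 2.06 and 0.590 at T2. ASGR had 17.4, 20.7 and 18.3 at T0 and 0.576, 0.522 and 0.451 at T2. ASGH had 31.6, 21.9 and 30.9 at T0 and 0.658, 0.816 and 0.382 at T2. By edgeR ASGV changed by 3.18 on log2 (adjusted p = 8.94e-39), against -6.01 for ASGK, -5.18 for ASGR and -5.52 for ASGH. ASGK fell by more than ASGR but started higher, and it still stood above ASGR at T2 in each screen. The Thr3 versions ATGK, ATGR and ATGH changed by -4.90, -5.80 and -5.09. The versions of the yeast cofilin tail, RSGK, RSGR and RSGH, changed by -6.56, -5.04 and -6.01. All 9 basic versions fell by this test, and at T2 in glucose none exceeded 7.90 rpm in any screen, the level of ATGH in screen 2.

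Matched pairs compare the basic residues in the same background at positions 2, 3 and 4, as a log2 change from T0 to T2 in glucose. By limma on 1 value per screen, adjusted over all such pairs of residues in the library, 164 of 800 His5-Lys5 pairs differed, 86 with His5 higher and 78 with Lys5 higher. Of the His5-Arg5 pairs 145 had His5 higher and 65 had Arg5 higher. Of the Lys5-Arg5 pairs 117 had Lys5 higher and 48 had Arg5 higher. Called pairs made up 20.5%, 26.2% and 20.6% of these comparisons, against 58.5% of all residue pairs in the library. The median difference was -0.02 for His5 minus Lys5, 0.37 for His5 minus Arg5 and 0.44 for Lys5 minus Arg5. Without screen 1 the call counts fell to 37 pairs with Lys5 above His5, 39 with Arg5 above His5 and 62 with Lys5 above Arg5.

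His5 exceeded Lys5 and Arg5 by most beside Leu4. In the 40 Leu4 backgrounds His5 was called higher than Lys5 in 26 and lower in 1, with a median difference of 3.22. His5 was called higher than Arg5 in 29 of these 40 and lower in 0, with a median difference of 2.94. With Met4 the counts were 11 higher and 1 lower against Lys5, and 21 higher and 1 lower against Arg5. In the 760 backgrounds without Leu4, His5 was above Lys5 in 60 and below in 77. Against Arg5 in these backgrounds, His5 was above in 116 and below in 65, with a median difference of 0.28. Lys5 and Arg5 did not separate by Leu4, with Lys5 called higher in 5 and lower in 4 of the 40 backgrounds.

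The 40 His5 variants with Leu4 fell later and less than the other 760, though 25 of them were called lower from T0 to T2 in glucose, 9 of 20 with Ser3 and 16 of 20 with Thr3, and 4 were called higher, all with Ser3. This group was singled out after its values were seen. The medians over the 40 in the 3 screens were 40.7, 31.5 and 29.3 rpm at T0 and 36.5, 36.8 and 34.0 at T1 in glucose. They were 13.5, 8.95 and 3.57 at T2 and 4.71, 6.73 and 2.64 at T3. The median level was thus held to T1 and fell later. Leu4-Lys5 medians were already at 5.18, 3.36 and 2.76 at T1 in glucose, and those of Leu4-Arg5 at 3.18, 2.71 and 1.71. Every Leu4-His5 median at T1 was above every Leu4-Lys5 and Leu4-Arg5 median, and the last 2 sets overlapped.

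From T0 to T1 in glucose the median Leu4-His5 variant changed by -0.04, 0.39 and 0.43 on log2 in the 3 screens, against -2.63, -3.04 and -3.30 for the 760 other His5 variants. From T1 to T2 it changed by -1.25, -1.80 and -2.24, and the others by -2.02, -1.53 and -2.72. The difference between the sets thus lay in the first interval, and in the second it went in both directions. Of the 2400 members 17 stood above T0 at T1 in glucose in all 3 screens, 15 of them Leu4-His5 variants, and no Lys5 or Arg5 variant did.

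Among residues at position 4, Leu, Met and Ile gave the 3 highest His5 medians from T0 to T2 in glucose, at -1.76 ± 0.49, -3.92 ± 0.71 and -4.65 ± 0.55. The 3 lowest were Thr, Glu and Arg, at -5.31, -5.33 and -5.35. For Arg5 the highest were Leu (-4.74), Asn (-5.06) and Trp (-5.08), and the lowest Tyr (-5.66), His (-5.67) and Gln (-5.68). For Lys5 they ran from Lys (-4.42), Asn (-4.49) and Ile (-4.62) down to Pro (-5.20), Ser (-5.26) and Gln (-5.26). Gly, the residue of native cofilin at position 4, gave none of the 3 highest medians with any basic residue. The SD holds a shift of whole screens, so the ends of these orders are also given within screens. With Lys5, Lys4 had medians of -4.09, -3.85 and -5.33 in the 3 screens and Gln4 -4.68, -4.64 and -6.46. With Arg5, Leu4 had -4.06, -4.25 and -5.90 and Gln4 -4.97, -5.19 and -6.89. With His5, Leu4 had -1.39, -1.57 and -2.32 and Arg4 -4.50, -4.91 and -6.65. The first of each pair was higher in every screen, and the distance was widest for His5.

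The gain from Leu4 differed among residues at position 5. Leu4 raised the median of His5 variants by 3.35 ± 0.40 over that of His5 variants without Leu4, of Lys5 variants by 0.23 ± 0.09 and of Arg5 variants by 0.69 ± 0.05. The gain with His5 had rank 5 of 20 residues, after Gly5 (6.35), Ser5 (5.62), Ala5 (5.61) and Phe5 (5.12). With Asn5 and Gln5, also polar, it was 2.20 and 1.63. With Asp5 and Glu5 it was 0.80 and 0.60. The median Leu4-His5 variant still fell, by 1.76, whereas the median Leu4 variant with Gly5, Ser5, Ala5 or Phe5 changed by 1.61 to 2.01.

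FSLH, LSLH, MSLH and ISLH have a bulky hydrophobic residue at position 2. FSLH had 10.6, 28.3 and 18.7 rpm at T0, 70.7, 80.0 and 58.5 at T1 and 64.1, 80.1 and 45.0 at T2 in glucose. All values at T2 were above all values at T0, and the log2 change was 1.78 ± 0.59 (SE; edgeR, adjusted p = 0.00278). LSLH had 15.1, 17.1 and 14.7 at T0 and 97.4, 24.9 and 49.7 at T2, a change of 1.66 ± 0.62 (edgeR, adjusted p = 0.00883), with the T2 libraries spread widely. MSLH had 33.5, 55.7 and 33.8 at T0 and rose by 1.41 ± 0.43 (edgeR, adjusted p = 0.00128). ISLH had 41.0, 67.8 and 50.2 at T0, 169, 185 and 101 at T1 and 102, 85.6 and 115 at T2, and rose by 0.95 ± 0.41 (edgeR, adjusted p = 0.0244). ISLH fell from T1 to T2 in 2 of 3 screens.

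None of the 4 was called without screen 1, with log2 changes of 0.76 to 1.38, and 3 were called without screen 3. Counted from T-1 in place of T0, FSLH changed by 0.45 (edgeR, adjusted p = 0.242), because its level dropped by 1.32 on log2 from T-1 to T0. The other scales tried raise nearly all variants relative to total reads, so the upward change of the 4 on them is no check of the rise. At T2 in glucose FSLH averaged 63.1 ± 17.6 rpm, FSLL 73.2 ± 49.5 and FSLQ 61.0 ± 33.8, while FSLK had 0.898 ± 0.538 and FSLR 0.653 ± 0.375. FSLH, FSLL and FSLQ overlapped, and both FSLK and FSLR lay below them in every screen. By limma, FSLH exceeded FSLK by 5.07 ± 0.53 (SE, adjusted p = 1.3e-05) and FSLR by 6.54 ± 0.53 (adjusted p = 4e-06) in the change from T0 to T2.

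The His codon is a single base from Gln and Arg, so reads of those neighbours are given beside the Leu4-His5 levels. At T2 in glucose the Gln5 neighbour of LSLH stood at 65.2 ± 11.97 rpm against 57.4 ± 36.9 for LSLH itself, that of MSLH at 50.01 ± 13.6 against 107 ± 23.3 and that of YSLH at 17.6 ± 2.78 against 101 ± 25.3. The Arg5 neighbours of LSLH, MSLH and ISLH stood at 1.03, 0.914 and 1.46. Among 34 backgrounds without Leu4 whose Gln5 variant had at least 50 rpm at T2, the His5 variant held a median of 2.69% of the Gln5 level. Among the 10 such backgrounds with Leu4 it held 27.7%. Single backgrounds ran from 0.828% to 102.1% without Leu4 and from 1.42% to 214.8% with Leu4, so the sets overlapped. Whether misread codons add to these levels was not tested. MSLH, ISLH and YSLH held more reads than their Gln5 neighbours.

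At position 3 the Ser versions of Leu4-His5 variants fared better than the Thr versions. Medians of the 20 Ser3 variants were -1.12 ± 0.25 from T0 to T2 in glucose and those of the 20 Thr3 variants -3.08 ± 0.50. Ser3 was higher in 18 of 20 pairs, and limma called 10 of them with Ser3 higher and 1 with Thr3 higher, adjusted over 8000 pairs. The largest differences in this group were Thr minus Ser of -4.73 in V.LH, -4.15 in Y.LH and -3.50 in E.LH, where the dot marks position 3. The exception was P.LH, where Thr3 was higher by 2.49 ± 0.61 (limma, adjusted p = 0.0301).

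Over all 1200 basic pairs Thr3 was called higher in 79 (6.58%) and Ser3 in 78 (6.50%). In the whole library 18.4% of pairs had Thr3 called higher and 7.34% had Ser3 called higher. By residue, Thr3 was higher in 30 Lys5 pairs and lower in 13, higher in 26 Arg5 pairs and lower in 30, and higher in 23 His5 pairs and lower in 35. Medians of Ser3 and Thr3 variants differed little, at -5.07 and -4.86 for Lys5, -5.43 and -5.38 for Arg5, and -5.06 and -5.03 for His5. Single pairs differed more, and the pairs named here were among the largest. ISVH exceeded ITVH, with Thr minus Ser of -5.36, -4.74 and -4.93 in the 3 screens, and STWR exceeded SSWR by 2.99, 5.03 and 5.33. Without screen 2 the counts fell to 29 and 36, and without screen 3 Thr3 was higher in 49. Over all 8000 pairs the counts fell as well, from 1470 and 587 to 869 and 267 without screen 2. Without screen 3 Thr3 was higher in 1157 of all pairs.

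ISVH, which pairs Val4 with His5, was the only His5 variant without Leu4 that was not called lower. It had 71.1, 81.7 and 50.7 rpm at T0, 152, 195 and 93.3 at T1 and 67.4, 70.6 and 53.7 at T2 in glucose, a log2 change of -0.07 ± 0.45 (SE; edgeR, adjusted p = 0.884). Counted from T-1 it was called lower, at -0.73 (edgeR, adjusted p = 0.00287). Its T0 and T2 values overlapped, and T1 was the highest of the 3 in every screen. ISVK, its Lys version, had 167, 137 and 136 at T0, 152, 157 and 112 at T1 and 47.3, 37.3 and 18.5 at T2.

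At position 2 the medians of the basic variants spanned less than those of the other variants. For His5 from T0 to T2 in glucose the highest were Leu (-4.65), Ile (-4.67) and Asn (-4.81) and the lowest Cys (-5.26), Arg (-5.27) and Gly (-5.27). For Lys5 they were Lys (-4.18), Asn (-4.25) and Phe (-4.73) against Trp (-5.22), Asp (-5.23) and Pro (-5.25). For Arg5 they were Asn (-5.02), Arg (-5.20) and Pro (-5.24) against Thr (-5.55), Ala (-5.56) and Val (-5.59). Within screens Lys2 had medians of -3.73, -3.65 and -5.17 with Lys5 and Pro2 -4.62, -4.65 and -6.50, so Lys2 was higher in each. Outside the basic residues the medians over position 2 ran from -0.35 with Leu to -4.66 with Glu. Nearly all basic variants were low at T2, which limits how far their medians can differ.

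Before the split into media the members moved in both directions. From T-1 to T0, when DOX was added and glucose was replaced by raffinose, edgeR called 733 of 2400 members higher (30.5%) and 530 lower (22.1%), against 24.2% and 33.1% of all variants. His5 had 285 higher and 149 lower, Lys5 222 and 190, and Arg5 226 and 191. The lowest position 4 medians at this step were those of Leu, Trp and Phe with Lys5 (-0.32, -0.40 and -0.23) and with Arg5 (-0.43, -0.39 and -0.18). With His5 they were Leu (-0.31), Trp (-0.12) and Val (-0.05). Relative to the Asp5 and Glu5 variants 305 members were higher and 908 lower, against 1536 and 8034 of all variants. The balance of the members at this step thus depends on the scale. In a fit of all 24 libraries 34 members were called higher and 107 lower, against 269 and 2565 of all variants.

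In galactose, where LIMK1 is induced, 800 of 800 Lys5 and 798 of 800 Arg5 variants were called lower from T0 to T2 by edgeR. The carbon source changes together with LIMK1, and every pool carries the LIMK1 plasmid, so these cannot be told apart in any comparison of the media. From T0 to T2 in galactose edgeR called 2372 members lower and 7 higher, against 71.6% and 19.0% of all variants. These 7 were all Leu4-His5 variants, namely FSLH, MSLH, LSLH, LTLH, YSLH, ISLH and FTLH. The galactose and glucose comparisons share their T0 libraries, so the values are only set side by side. FSLH had 94.9, 86.6 and 62.9 rpm at T2 in galactose, LSLH 67.7, 55.4 and 80.7, and YSLH 160, 152 and 197. LTLH had 11.5, 18.0 and 8.02 at T0, 19.4, 19.3 and 22.5 at T2 in glucose and 39.4, 24.4 and 64.3 at T2 in galactose. Median levels of the 40 Leu4-His5 variants at T2 were 15.9, 15.7 and 23.4 in galactose, above the 13.5, 8.95 and 3.57 in glucose in each screen. The median log2 difference of galactose and glucose at T2 was -1.56, -0.99 and -0.05 for Lys5 and -1.83, -1.49 and -0.12 for Arg5, lower in galactose in each screen and close to 0 in screen 3. For the other 760 His5 variants the log2 difference of galactose and glucose at T2 was -1.56, -1.05 and 0.24.

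The LIMK1 effect compares the media by subtracting the glucose change from the galactose change, each on log2 between T1 and T3. It is named after the kinase but includes any effect of the carbon source. By edgeR 40 members were lower (1.67%) and 7 higher (0.292%), against 9.89% and 3.57% of all variants. The medians were -0.80 ± 0.36 for Lys5, -1.09 ± 0.38 for Arg5 and -0.81 ± 0.37 for His5, and -0.62 ± 0.38 for all variants. By position 3, the members had medians of -0.95 with Ser3 and -0.82 with Thr3. Variants outside the basic residues had -0.96 and -0.17. With Arg5 the medians were -1.03 with Ser3 and -1.13 with Thr3. The cause of the member medians was not tested. None of the 9 basic versions of native tails was called, with effects of -1.89 to 0.14. These 9 were already low at T2 in glucose, so the lack of a call is no measure of their response to LIMK1. The paper read LIMK1 sensitivity from sequences that were enriched in glucose. ASGV had an effect of -3.11 (edgeR, adjusted p = 4.24e-53). For the 40 Leu4-His5 variants the median was -0.02, 0.77 and 0.91 in the 3 screens. In that group 7 were called higher and 0 lower, with 12 higher and 0 lower at an unadjusted p under 0.05. Other Leu4 sets also had higher calls, with 11 of 40 Leu4-Gln5 variants higher and 0 lower, and 10 of 80 with Leu4 and Asp5 or Glu5 higher and 3 lower. Of the Leu4-Lys5 and Leu4-Arg5 variants 0 were called, with 0 and 2 lower at an unadjusted p under 0.05. The medians of these 2 sets were already low at T1 in glucose, which limits what the test could call. DESeq2, with its own size factors, moved the median of all variants to 0.14. It called 44 members higher and 6 lower of 392 tested, against 1837 and 873 of all the variants it tested. Of the 44, 19 were Leu4-His5 variants.

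The 7 members with a higher change in galactose were MTLH, CSLH, PTLH, HSLH, ESLH, YSLH and MSLH, of which MTLH and PTLH carry Thr3. CSLH went from 71.7, 98.9 and 56.4 rpm at T1 in glucose to 3.95, 10.4 and 3.81 at T3. In galactose it went from 79.1, 79.3 and 86.6 to 25.0, 37.2 and 52.4. It fell in both media, less in galactose, with an effect of 2.61 ± 0.52 (SE; edgeR, adjusted p = 9.62e-06). MTLH fell from 35.5, 28.7 and 20.0 to 7.75, 8.54 and 1.42 in glucose and stood at 42.3, 35.8 and 35.2 at T3 in galactose. MSLH stood at 93.0, 63.5 and 106 at T3 in glucose and at 192, 112 and 170 in galactose, an effect of 0.91 ± 0.30 (edgeR, adjusted p = 0.0213). Without screen 2 or screen 3 only 3 of the 2400 members were called higher, and 2 without the block for the culture. Over all variants the count also dropped, from 571 to 311 without screen 2, 143 without screen 3 and 145 without the block.

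The members called lower had few reads in the galactose libraries. The 40 had a median of 17 reads at T3 in galactose summed over the 3 screens, against 41 for all members, and 17 of the 40 had no read in at least 1 of these libraries. RTGR had 5, 3 and 3 reads at T1 and 0, 0 and 0 at T3 in galactose, and 16, 25 and 8 at T1 and 13, 25 and 3 at T3 in glucose. LSAH had 119, 30 and 76 reads at T1 and 4, 6 and 1 at T3 in galactose, while in glucose it had 76, 61 and 34 at T1 and 363, 33 and 7 at T3, so that 1 library stood apart. Without screen 1 only 3 members were called lower, and without screen 3 only 9. Of all variants 1583 were called lower with all screens, 1158 without screen 1 and 1209 without screen 3.

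Late in the glucose culture no change of a single member was detectable by edgeR. From T2 to T3 edgeR called 0 of 2400 members (0.0% of all variants), with 26 higher and 72 lower at an unadjusted p under 0.05. The medians of the screens were -0.24, 0.18 and 0.15 for Lys5 and -0.18, 0.19 and 0.17 for Arg5. The median Leu4-His5 variant fell in each screen, by 0.61, 0.56 and 0.46, and 12 of these 40 were lower and 1 higher at an unadjusted p under 0.05. DESeq2 called 3 members higher and 21 lower of the 451 it tested, against 7.14% of all variants lower, and 17 of the 21 were His5 variants.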

How the data were processed

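The deposited values are raw read counts of each variant, in 3 tables of 8 libraries, which the authors obtained by amplicon sequencing of plasmids taken from the yeast. The sources used here do not say whether duplicates were removed, and PCR reads are not independent molecules. Variants were joined by name, and all 16000 coding sequences translate to their names. No variant was filtered.

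For each variant, edgeR 4.0.16 gave the quasi-likelihood test of a change, with total reads as the library size, and the screen was a block. The LIMK1 fit had each culture of a screen as its block. DESeq2 1.42.0 was an alternative. Matched pairs were tested with limma 3.58.1 on 1 log2 ratio per screen, with 0.5 reads added to each count. P values were adjusted by Benjamini-Hochberg over all variants or pairs at a threshold of 0.05. Medians were taken within a screen, and SD is over 3 screens. Both fits were tested on simulated data.

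Samples were assigned to screens by the numbers in their labels. After removing the mean over screens, same-numbered T0 and T2 libraries in glucose correlated at 0.136, -0.0888 and -0.0411, and T2 and T3 at 0.400, 0.596 and 0.621.

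Members named are those called higher or not called from T0 to T2 in glucose, the 5 lowest, versions of native tails and the 5 highest and lowest LIMK1 effects with 1 sign in all screens; others were chosen after their values were seen. The members, lists and rule were chosen with earlier results of these data known. R 4.3.3, Python 3.11.15, numpy 2.4.6 and pandas 2.3.3 were used.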

Additional observations from a re-analysis of the deposited data

Results flagged for a closer look

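MTLH is the only member that passed the LIMK1 test and moved in opposite directions in the 2 media in every screen. From T1 to T3 it fell in glucose in all 3 screens and rose in galactose in all 3. The difference was 2.95 on log2 (edgeR, adjusted p = 0.000298), and it was called under every alternative except without screen 3, where it was 2.37 (adjusted p = 0.0722).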

How the results depend on the processing

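Scaling set the direction of members near 0. From T0 to T2 in glucose the median log2 change of all variants was -4.15 by total reads, -1.27 by TMM, 0.06 relative to the Asp5 and Glu5 variants and -0.16 by DESeq2. On the last 3 scales, in this order, 23, 113 and 125 members were called higher, and 925 and 1530 were lower on the last 2 of them. Of all variants 5241, 6244 and 6305 were called higher, and 3591 and 6038 lower on the last 2. The uncalled members that were negative by total reads turned positive on these scales. ISVH changed by 2.82, 4.15 and 3.93. FTLH changed by 2.71, 4.04 and 3.83. ASLH changed by 2.45, 3.79 and 3.57. STWR changed by 2.1, 3.44 and 3.22. MTLH changed by 2.08, 3.42 and 3.2. ESLH changed by 2.08, 3.41 and 3.19. DSLH changed by 2.03, 3.36 and 3.14. WSLH changed by 1.88, 3.22 and 3.01. CSLH changed by 1.85, 3.19 and 2.97. HSLH changed by 1.63, 2.96 and 2.75. GSYR changed by 1.5, 2.84 and 2.62. Of the 14 uncalled members, 6 were called lower and 1 higher when counted from T-1, and 5 lower and 1 higher in 1 fit of all 24 libraries. Counted from T-1, LTLH was at -0.585, PTLH at -0.0896 and ESLH at 0.37, and without screen 2 PTLH was at -0.377 and ISVH at 0.00354. Over the fits without 1 screen PTLH reached 0.461 and ISVH -0.144. In galactose 40, 82 and 105 members were higher on the same 3 scales, against 5095, 5927 and 6153 of all variants. By DESeq2 1572 members were lower, against 5820 of all variants.

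From T-1 to T0 the Asp5 and Glu5 scale gave 305 higher and 908 lower, and 1 fit of all 24 libraries gave 34 and 107. Over all variants these gave 1536 and 8034, and 269 and 2565. From T2 to T3 in glucose the Asp5 and Glu5 scale called 1 higher and 1 lower, DESeq2 3 and 21, and the fit of all libraries 1 and 5. For the LIMK1 effect DESeq2 called 44 higher and 6 lower, and the Asp5 and Glu5 scale 197 lower. Among all variants DESeq2 called 1837 higher and 873 lower, and the Asp5 and Glu5 scale 2180 lower. Without the replicate block 2 were higher and 11 lower for the LIMK1 effect, and 5 higher and 2377 lower from T0 to T2 in glucose. Of all variants 145 were higher and 1193 lower for the first, and 3428 and 11208 for the second. Restricting pairs to at least 100 reads at T0 left 28 with Arg5 above Lys5, and ending at T3 gave 129 with Thr3 above Ser3.

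Leaving out 1 screen in turn gave 343 to 488 members lower from T-1 to T0, 0 to 5 higher from T0 to T2 in glucose, and 0 to 2 higher and 0 to 5 lower from T2 to T3. For the LIMK1 effect it gave 3 to 5 higher and 3 to 37 lower, against 143 to 438 and 1158 to 1363 of all variants. Pairs with Lys5 above His5 numbered 37 to 76, with Arg5 above His5 39 to 61, with Lys5 above Arg5 62 to 100, with Thr3 higher 29 to 53 and with Ser3 higher 36 to 62. Over all 8000 position 3 pairs the last 2 counts were 869 to 1165 and 267 to 428. The other 100 counts stayed within 1.5 times. The causes were not tested. Late levels rest on few reads, and the LIMK1 effect of members correlated between screens at only 0.0894 to 0.213 across variants, against 0.558 to 0.607 for T0 to T2 in glucose.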

Other observations

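Lys5 variants that also carry Lys or Asn at position 2 or 4 fell least among Lys5 variants. The 8 with Lys or Asn at both positions changed by -4.16, -2.66 and -4.90 on log2 from T0 to T2 in glucose in the 3 screens. The 144 with Lys or Asn at 1 of them changed by -4.07, -3.74 and -5.36, and the 648 with neither by -4.50, -4.56 and -6.17. The order of the last 2 sets was the same in each screen. With Arg5 the sets with both and with neither changed by -5.03 ± 0.60 and -5.44 ± 1.04, and with His5 by -4.55 ± 0.86 and -5.06 ± 0.82. These sets were chosen after their values were seen, and no test was made.

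On the scale of total reads all 800 Lys5 variants fell. KTIK had the smallest fall, with 9.53, 18.8 and 10.5 rpm at T0 and 3.37, 7.56 and 3.99 at T2 in glucose, a change of -1.40 ± 0.68 (SE; edgeR, adjusted p = 0.0448). It started below the median level of Lys5 variants at T0, which left it less room to fall. Among Arg5 variants STWR had the smallest, with 29.3, 29.2 and 34.5 at T0 and 18.0, 19.7 and 16.4 at T2, a change of -0.78 ± 0.65 (edgeR, adjusted p = 0.246). It was followed by GSYR, with 12.8, 11.6 and 27.8 at T0 and 5.92, 6.14 and 6.35 at T2. Both have an aromatic residue at position 4. Over Arg5 variants the median with Trp4 (-5.08) was among the 3 highest and that with Tyr4 (-5.66) among the 3 lowest. STWR and GSYR stood below T0 in every screen by total reads, and were called higher on the 3 other scales.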
